A study of Arabidopsis thaliana with 15 samples.

Results

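Leaf transcripts of *ANAC046* overexpressors (OX) were compared with those of the wild type (WT) at 50 days after sowing (DAS). The comparison took the 6 arrays labelled as leaf at 50 DAS, 3 for OX and 3 for WT, out of 15 arrays in the series. The study asked how the NAC transcription factor ANAC046 acts in the breakdown of chlorophyll (Chl) and in leaf senescence. The other 9 arrays held WT plants, a knockout (KO) and plants with the repressor form ANAC046-SRDX after 5 days in the dark (DAD). They enter here for a few genes only.

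Both groups were *Arabidopsis thaliana* of the Col-0 ecotype, grown under long days on soil, in a greenhouse according to the labels and in growth cabinets according to the Methods, and neither received a treatment. The OX plants carried *ANAC046* behind the cauliflower mosaic virus 35S promoter, which is active in most cell types, so the levels below do not come from the gene's own sites of expression. According to the Methods, RNA came from 3 independent OX lines. The labels number the arrays without naming lines, and the arrays are called line 1, line 2 and line 3 after these numbers. With 1 array per line, the spread among the OX arrays holds differences between lines as well as between plants. The labels do not say how the WT plants were sampled, so p-values measure only the spread between these 6 arrays. The WT arrays shared a slide and the OX arrays shared another, and an effect of the slide therefore cannot be told apart from one of the genotype. All 6 arrays were scanned on the same day.

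Leaf senescence is an ordered programme in which a leaf dismantles its chloroplasts, breaks down Chl, protein, lipid and nucleic acid, and exports the nutrients before its cells die. NAC and WRKY transcription factors switch this programme on, jasmonate, ethylene, salicylic acid and abscisic acid (ABA) promote it, and cytokinin and auxin tend to delay it. At the surface, leaf epidermis is sealed by cutin and wax, whereas suberin, a polyester of long-chain fatty acids, glycerol and ferulate, is typical of root endodermis, cork, seed coats and wounds.

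Each array carried 43803 spots other than controls, of which 62.2 to 68.7% were well above background on the 6 arrays. Levels are given as log2 of the signal relative to the array median, so that 0 is the median signal, and they are compared between arrays and never between genes. A total of 20635 genes had a probe well above background on all 3 arrays of at least 1 group and were tested with limma, and a gene was said to rise or fall where its Benjamini-Hochberg adjusted p-value was under 0.15. Where the probe stayed below this level on all 3 arrays of a group, the fold is a bound: the bright group's mean over the higher of the lowest measurable signal and the probe's own signal on each dim array, written "at least N-fold". In leaves, fewer cells of a type and less RNA per cell cannot be told apart.

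The transgene graded the lines. *ANAC046* had levels of 0.42, 0.54 and 0.77 in WT and of 2.64, 8.95 and 9.01 in lines 1, 2 and 3. The groups did not overlap, but line 1 stood nearer to WT than to the other lines. The mean difference was 6.29 on the log2 scale (SE 1.73, limma, Benjamini-Hochberg adjusted p = 0.193), which did not pass the limit.

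Line 1 was also the least changed line across the transcriptome. The SD of the difference from the WT mean over all genes tested was 0.50 in line 1, 1.11 in line 2 and 1.24 in line 3, and the 3 WT arrays deviated from their own mean with SDs of 0.27, 0.21 and 0.23. In line 1, 571 genes were more than 1 log2 unit above the WT mean and 262 more than 1 below it. The numbers were 1956 and 2138 in line 2, and 2378 and 3133 in line 3. Line 1 had the smallest difference of the 3 lines for 13615 genes (66.0%) and the largest for 2061 (9.99%). Line 3 had the most genes more than 1 log2 unit from WT, in both directions, although its *ANAC046* level was nearly that of line 2.

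**Figure D1:**
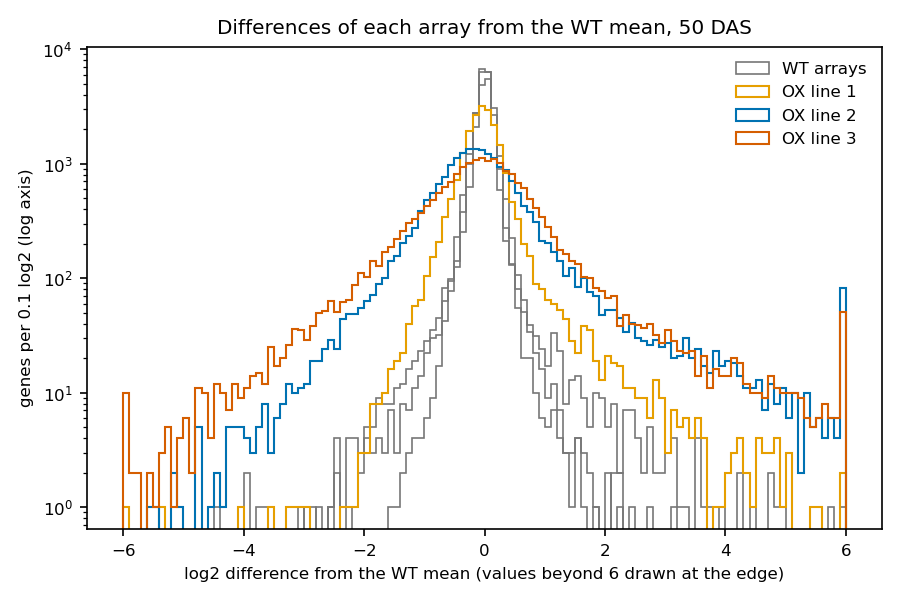
Distribution of the log2 difference from the WT mean over the 20635 genes tested, in bins of 0.1 log2 units with a log count axis, for the WT arrays (grey) and the 3 OX lines. Line 1 (SD 0.50) lies between the WT arrays (SD 0.21 to 0.27) and lines 2 and 3 (SD 1.11 and 1.24), which are broad on both sides.

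Among the genes tested, 2656 (12.9%) had all 3 OX arrays above all 3 WT arrays, and 4364 (21.1%) had all 3 below. These shares are the background against which the gene groups below are read. Single lines lay above every WT array for 28.7, 34.7 and 40.9% of the genes (lines 1, 2 and 3) and below for 38.3, 50.2 and 46.4%. In the first set the median difference from WT was 0.29 in line 1, 0.68 in line 2 and 0.84 in line 3. In the second set it was −0.28, −0.69 and −0.71. Line 1 was the least changed line for 76.5% of the first set and 76.8% of the second.

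Only 20 genes passed the limit, 19 that rose (0.0921% of those tested) and 1 that fell (0.00485%). An unadjusted p under 0.05 was reached by 1920 genes (9.3%) that were higher and 2847 (13.8%) that were lower. Storey's q-value, the kind of adjustment the Methods name, put 5092 genes (24.7%) in the higher and 7127 (34.5%) in the lower set at the same limit. The number of calls also turned on single arrays: without line 1, 4940 genes (23.9%) were higher and 6751 (32.7%) were lower past the limit, whereas without WT replicate 2 or WT replicate 3 there were none. Without line 2 or line 3, 2 genes passed the limit in each case.

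Passing the limit favours genes on which the 3 lines are alike, so the likeness of the lines in these 20 genes is in part set by the choice. Of the 20, 12 passed the detection filter through OX alone, the group in which they are high, and in 9 no WT array was well above background. Only 8 were well above background on all 6 arrays, with line medians of 1.87, 2.16 and 1.98. Over all 20 the median difference from WT was 3.23 in line 1, 4.10 in line 2 and 3.96 in line 3. Line 1 was the least changed line for 15 of the 20.

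The smallest adjusted p belonged to *MAP18*, which encodes a microtubule-associated protein. Its level was −3.84, −4.22 and −4.33 in WT, below the level called well above background, and 0.87, 1.95 and 1.38 in lines 1, 2 and 3. It rose at least 15.3-fold (limma, Benjamini-Hochberg adjusted p = 0.0360). All 3 lines lay above every WT array.

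*ACS7*, a 1-aminocyclopropane-1-carboxylate synthase of the ethylene pathway, had levels of −3.04, −4.90 and −4.49 in WT and of 0.72, 2.29 and 0.97 in OX. It rose at least 14.5-fold (limma, Benjamini-Hochberg adjusted p = 0.131). *PAP21*, a purple acid phosphatase, stood at −5.35, −5.35 and −5.34 in WT, the bottom of the scale, and at −1.09, −0.39 and −1.50 in OX. It rose at least 2.91-fold (limma, Benjamini-Hochberg adjusted p = 0.0530). In both genes line 1 was within the range of the other lines or next to it.

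Enzymes of sterol and secondary metabolism were among the rest. *LAS1*, a lanosterol synthase, rose at least 10.6-fold. *PRR2*, a pinoresinol reductase of lignan synthesis, was −2.12, −2.18 and −2.30 in WT and −0.05, 0.44 and 0.44 in OX, a 5.57-fold rise (limma, Benjamini-Hochberg adjusted p = 0.0629). *GSTU6*, a glutathione S-transferase, rose 3.56-fold. *UMAMIT25*, of a family of amino acid transporters, rose at least 3.98-fold, and *BST1* rose 7.62-fold.

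The most evenly raised genes had ordinary levels in WT. *PGIP2*, an inhibitor of fungal polygalacturonases, was 3.60, 3.46 and 3.50 in WT and 4.69, 4.64 and 4.58 in lines 1, 2 and 3, a 2.17-fold rise (limma, Benjamini-Hochberg adjusted p = 0.131). In this gene line 1 was the highest line. *WRKY57*, a WRKY transcription factor, was 2.84, 2.54 and 2.60 in WT and 3.81, 4.03 and 4.05 in OX, a 2.47-fold rise (limma, Benjamini-Hochberg adjusted p = 0.131). The only gene that fell, *AT1G52565*, was 5.22, 5.29 and 5.40 in WT and 4.21, 4.01 and 4.15 in OX, a difference of −1.18 (limma, Benjamini-Hochberg adjusted p = 0.131). Others past the limit were *AT2G41800* (23.4-fold), *AT5G52390* (21.3-fold), *AT2G01610* (12.9-fold), *AT3G27400* (8.04-fold), *AT5G38780* (4.51-fold), *AT1G18980* (at least 8.34-fold), *AT5G19110* (at least 4.71-fold) and a probe with no locus.

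**Figure D2:**
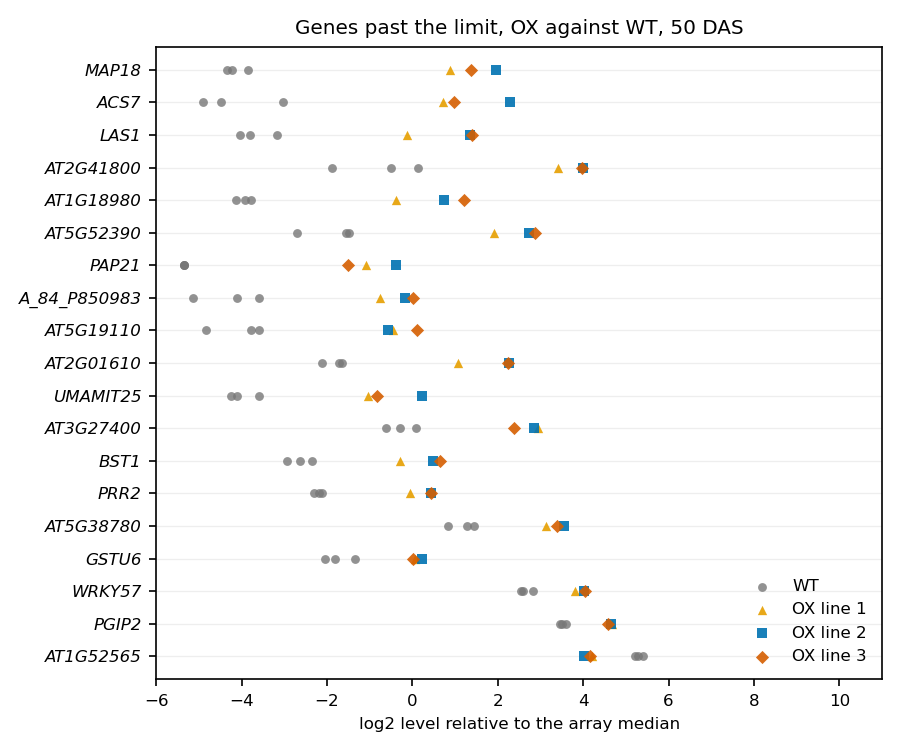
Level on each array (log2 relative to the array median) of 19 of the 20 genes with an adjusted p under 0.15, ordered by the difference of OX from WT. WT arrays are grey circles and the 3 OX lines are coloured; in every gene the 3 lines lie together on the same side of WT, and line 1 (triangle) is the line nearest to WT in 14 of 19.

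The arrays of dark-treated plants shared no array with those at 50 DAS and gave a separate measurement of 18 of the 19 genes with a locus, 17 of them higher in OX. The labels call these samples seedlings on agar and the Methods call them leaves, so tissue and stage may differ from the leaves at 50 DAS. The WT arrays at 5 DAD shared a slide and the KO arrays another, and no SRDX array lay on the slide of WT. Spots well above background made up 76.3 to 80.9% in WT, 67 to 68.7% in KO and 68.4 to 77.6% in SRDX. An effect of slide or detection therefore cannot be told apart from one of the genotype here either. At 5 DAD, 14.2% of 25455 genes were lower in KO than in WT past the limit and 8.8% were lower in SRDX, both compared with the same WT arrays. Of the 17 genes, 8 were lower past the limit in KO and 1 was higher, and 5 were lower in SRDX. Values are given for *MAP18*, *ACS7*, *PAP21* and *AT5G38780*. *MAP18* differed by −0.99 in KO (limma, Benjamini-Hochberg adjusted p = 0.0306) and by −1.35 in SRDX (0.0198). *ACS7* differed by −1.21 in KO (limma, Benjamini-Hochberg adjusted p = 0.0629) and by −2.26 in SRDX (0.0194), and leaving out WT replicate 1 (0.169) or WT replicate 2 (0.182) at 5 DAD ended the call in KO. *PAP21* differed by −1.34 in KO (limma, Benjamini-Hochberg adjusted p = 0.0417) and by −2.23 in SRDX (0.0180). *AT5G38780* differed by −1.74 in KO (limma, Benjamini-Hochberg adjusted p = 0.0183) and by −0.90 in SRDX (0.116), the latter not past the limit without any 1 of 5 arrays (0.161 to 0.291). *AT1G18980*, higher in OX, was higher in KO as well (1.11, limma, Benjamini-Hochberg adjusted p = 0.0332, one of 18.1% of genes), and *AT1G52565*, lower in OX, was lower in KO (−2.37, adjusted p = 0.0247).

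Of all genes tested, 353 passed the detection filter through OX alone and 1296 through WT alone, which favours large differences in these genes. Gene groups were described by their medians and by the number of members with the 3 OX arrays clear of the 3 WT arrays. Over 47 groups, the median of line 1 was the nearest to 0 in 37, and the median of line 3 was the farthest from 0 in 31. All 3 lines had a positive median in 16 groups and a negative one in 7. Lines 2 and 3 had medians of opposite sign in 5. For comparison, the median over all genes tested was −0.03 in line 1, −0.12 in line 2 and −0.05 in line 3.

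**Figure D3:**
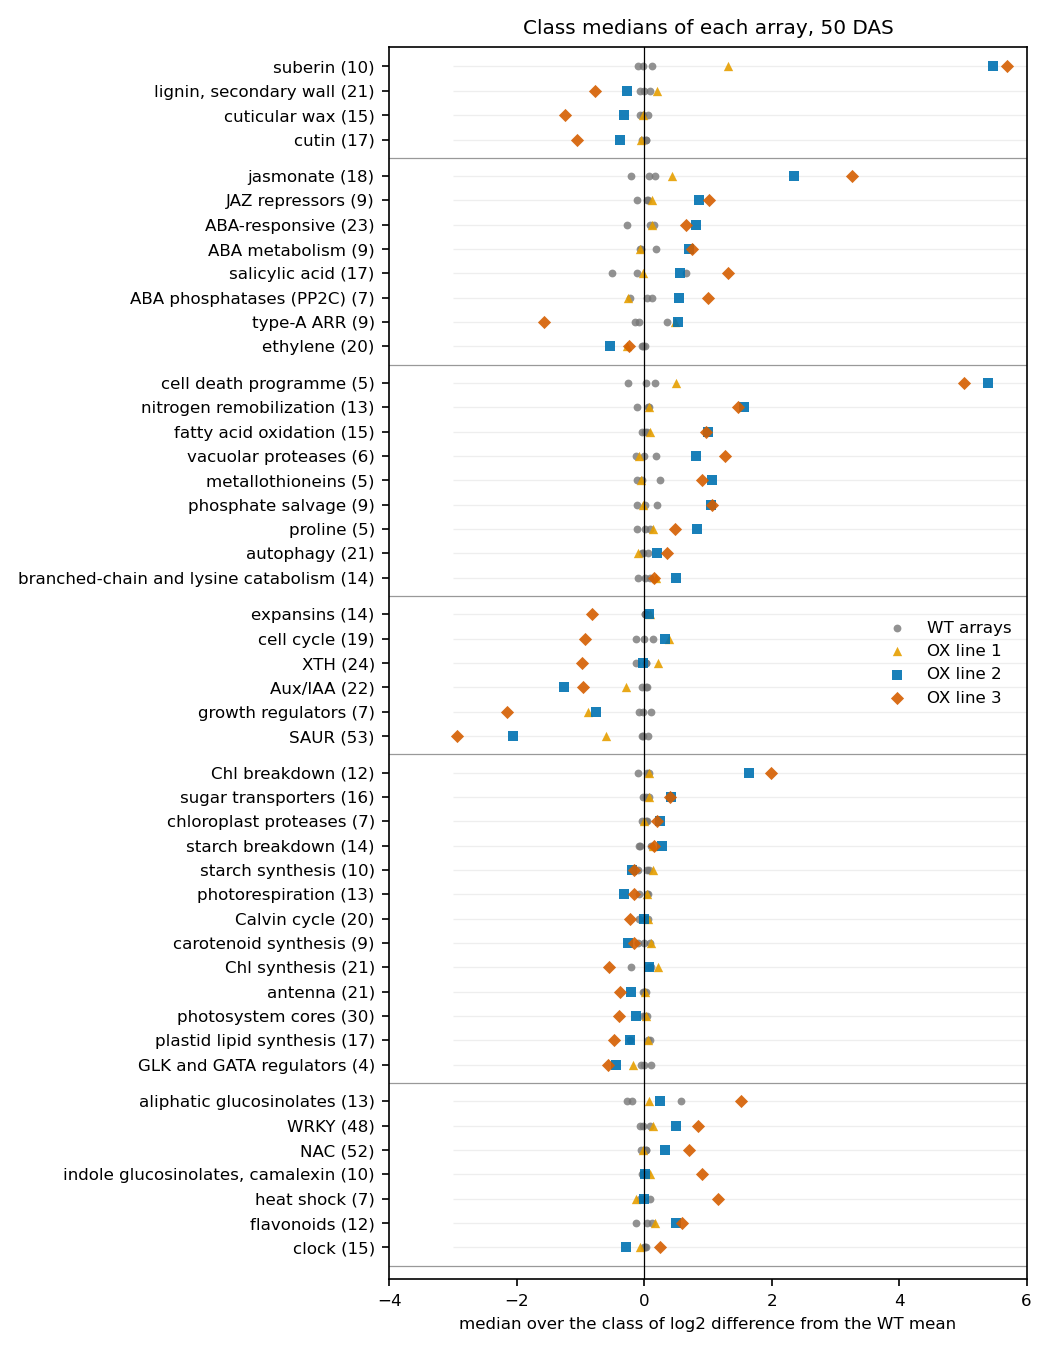
Median log2 difference from the WT mean over the tested members of each of 47 gene groups, for each WT array (grey) and each OX line, with the number of tested members in parentheses. Suberin, jasmonate and cell death genes lie far to the right in lines 2 and 3 and SAUR genes far to the left, with line 1 between them and WT; cell cycle genes and type-A *ARR* genes are on the left in line 3 only.

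Genes for suberin included some of the highest OX to WT ratios, but many were too dim in WT to be measured. Of the 10 tested, 5 were well above background on all 6 arrays, with a median difference of 1.74 and line medians of 0.32, 3.44 and 2.06. Of these 5, all OX arrays were above WT in 3 and below in 1. The other 5 tested genes passed the detection filter through OX alone, the group in which they are high, so the values over all 10 (median 3.97, or 3.59 with genes at their bound, and line medians of 1.32, 5.47 and 5.70) are a description that this selection favours. None of the 10 passed the limit. The other 6 suberin genes on the array were not tested, because they were measurable in lines 2 and 3 alone. *ABCG20*, a transporter required for suberin barriers, had levels of −5.33, −5.32 and −5.32 in WT and of −1.29, 3.15 and 4.23 in OX, at least 23.7-fold higher (limma, Benjamini-Hochberg adjusted p = 0.179). *ABCG6*, a second transporter of this kind, had levels of −4.35, −4.07 and −4.22 in WT and of −0.56, 3.96 and 4.64 in OX, at least 37.2-fold higher (limma, Benjamini-Hochberg adjusted p = 0.183). In both transporters line 1 was the lowest line.

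The enzymes of suberin monomer synthesis were not uniform in line 1. *GPAT5*, the acyltransferase that joins the fatty acids to glycerol, had levels of −3.06, −5.35 and −5.35 in WT and of −1.94, 2.61 and 3.05 in OX. *FAR5*, a reductase that makes the fatty alcohols of suberin, had levels of −2.86, −4.36 and −4.46 in WT and of 0.62, 2.42 and 2.83 in OX, at least 22.5-fold higher (limma, Benjamini-Hochberg adjusted p = 0.160). *ASFT*, which attaches ferulate, had levels of −1.01, −1.31 and −1.34 in WT and of 0.17, 4.59 and 5.18 in OX. In these 3 genes line 1 was above every WT array. *FAR1*, another reductase of suberin alcohols, was 2.42, 2.19 and 1.90 in WT and 1.88, 5.61 and 4.24 in OX, with line 1 just below WT and line 2 above line 3. None of these passed the limit.

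Among the untested genes was *CYP86A1*, the hydroxylase that makes the main suberin acids, at −5.14, −5.09 and −5.04 in WT, −2.77 in line 1, 3.26 in line 2 and 4.18 in line 3. *MYB41*, a transcription factor that can switch on suberin synthesis, was −5.32, −5.30 and −5.32 in WT, −3.71 in line 1, 0.56 in line 2 and 1.1 in line 3. Not all members were higher. *KCS20*, a fatty acid elongase with roles in both wax and suberin, was 7.07, 6.96 and 6.90 in WT and 6.87, 6.11 and 5.53 in OX, below WT in all 3 lines.

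Suberin being typical of roots and seed coats, markers of other organs were read beside it. Of 16 root markers, 10 were on none of the 6 arrays well above background and 1 was tested. Their summed signal, in units of the array median, was 1.71 to 1.77 in WT and 2.09, 4.87 and 2.38 in lines 1, 2 and 3. Of 12 seed markers, 9 were nowhere well above background, and their sum was 0.85 to 1.21 in WT and 1.20, 8.08 and 2.54 in OX. The sum in line 2 came largely from *EM6*, a late embryogenesis protein, whose level was 2.77 there. Their part in the suberin values was not tested.

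**Figure D4:**
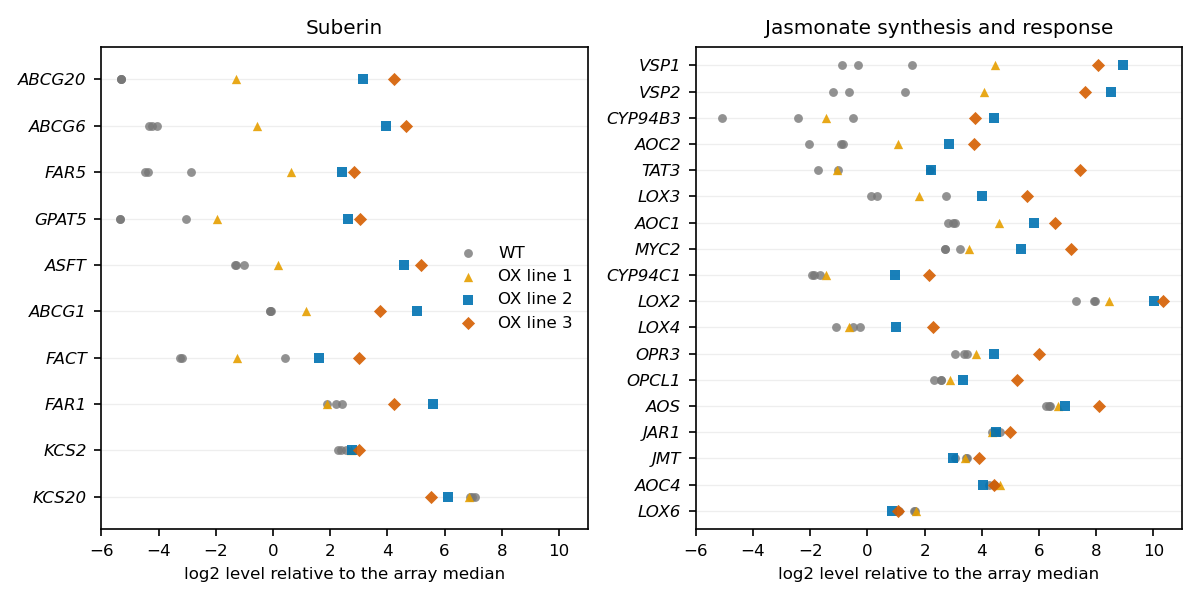
Level on each array (log2 relative to the array median) of the 10 tested suberin genes (left) and of the 18 tested jasmonate genes (right). In most of them line 1 (triangle) sits between the grey WT arrays and lines 2 and 3, as in *ABCG20* (WT near −5.3, OX −1.29, 3.15 and 4.23) and *VSP1* (WT up to 1.57, OX 4.45, 8.93 and 8.07).

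The other surface polymers had medians below 0. Cutin genes had a median difference of −0.51 over 17 tested, with line medians of −0.05, −0.39 and −1.05, and wax genes one of −0.37 over 15, with −0.02, −0.32 and −1.24. All OX arrays were below WT for 5 cutin and 4 wax genes and above WT for 1 of each, where the background on the lower side was 21.1%. Of the tested genes, 3 cutin and 2 wax genes passed the detection filter through WT alone, among them *SHN3*, *MYB106* and *CER4*. Over those measured on all 6 arrays the medians were −0.39 (14 cutin) and −0.36 (13 wax). Of these, 3 cutin (21.4%) and 3 wax genes (23.1%) were below WT, near the 20.4% of all genes so measured. *SHN3*, a transcription factor of cuticle formation, was −0.73, −1.43 and 0.57 in WT and −2.43, −2.88 and −5.23 in OX. *MYB106*, another regulator of the cuticle, differed by −1.76. *CER4*, the reductase that makes primary alcohols of wax, was 2.82, 2.45 and 2.52 in WT and 1.56, −0.95 and −2.61 in OX, a difference of −3.26 (limma, Benjamini-Hochberg adjusted p = 0.194).

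Wax enzymes did not move together. *CER1*, of alkane synthesis, was 6.71, 6.13 and 6.38 in WT, 6.27 in line 1, 8.54 in line 2 and 8.18 in line 3. *CER3*, its partner, was 6.84, 6.54 and 6.64 in WT and 7.07, 8.10 and 7.64 in OX, clear of WT in all lines. The glycerol acyltransferase of cutin, *GPAT6*, was also higher, at −1.12, −1.03 and −0.73 in WT and −0.39, 0.99 and 1.11 in OX. Neither this gene nor *CER3* passed the limit.

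The 4 epidermis markers were mixed. Their summed signal was 199 to 218 in WT, 202 in line 1, 122 in line 2 and 77.9 in line 3. *ATML1*, which specifies the epidermis, had levels of 5.05, 5.16 and 5.14 in WT and of 5.16, 3.56 and 3.19 in lines 1, 2 and 3, and its relative *PDF2* had 6.22, 6.21 and 6.26 against 6.07, 4.48 and 4.21. *FDH* differed by −0.50. *PDF1* went the other way in line 2, at 1.61, 1.86 and 1.17 in WT and 1.93, 4.59 and 0.00 in OX. The part of epidermal RNA in the cutin and wax values was not tested.

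Lignin and secondary wall genes were split, with a median difference of −0.33 over 21 tested and line medians of 0.21, −0.27 and −0.78. All OX arrays were above WT for 5 and below for 3. Of the 21, 3 passed the detection filter through WT alone, and over the other 18 the median was −0.13, with 5 above WT and 2 below. *FRA8*, a glycosyltransferase of xylan synthesis, was 1.90, 2.27 and 2.02 in WT and 3.0, 4.45 and 5.09 in OX (difference 2.11). Monolignol enzymes were mixed, with *FAH1* higher by 1.34 and *CAD5* by 1.27, and with *PAL2* at −0.80 and *HCT* at −0.33. The cellulose synthase *CESA4* differed by −1.22 and the laccase *LAC17* by −1.44. None of these passed the limit.

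Jasmonate was the hormone with the largest differences. The 18 tested genes of its synthesis and response had a median difference of 2.12, with 0.43, 2.35 and 3.26 in lines 1, 2 and 3, and 10 had all OX arrays above WT and none below. Of the 18, 1 passed the detection filter through OX alone, and over the other 17 the median was 1.88, with 10 above WT. The vegetative storage protein gene *VSP1*, a standard jasmonate marker, was 1.57, −0.89 and −0.33 in WT and 4.45, 8.93 and 8.07 in OX, a difference of 7.03 (limma, Benjamini-Hochberg adjusted p = 0.177). *VSP2*, its near copy, was 1.32, −1.19 and −0.65 in WT and 4.09, 8.52 and 7.61 in OX, and the 2 probes may in part read the same transcripts. WT replicate 1 was the highest WT array for both, yet still below line 1.

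The enzymes upstream were higher too. *LOX2*, the lipoxygenase at the start of the pathway, was 7.97, 7.30 and 7.91 in WT and 8.46, 10.02 and 10.34 in OX. The allene oxide cyclase *AOC1* was 3.01, 2.82 and 3.07 in WT and 4.60, 5.82 and 6.57 in OX, 6.49-fold higher (limma, Benjamini-Hochberg adjusted p = 0.177). *MYC2*, the transcription factor at the centre of jasmonate signalling, was 2.71, 2.72 and 3.24 in WT and 3.56, 5.36 and 7.11 in OX. In each of these genes the lines stood in the order 1, 2, 3, and line 1 was above all WT arrays.

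The JAZ proteins, repressors that are themselves induced by jasmonate, had a median difference of 0.70 over 9 tested genes, and 3 had all OX arrays above WT. Of the 9, 2 passed the detection filter through OX alone, the group in which they are high. Over the other 7 the median was 0.49, with 0.11, 0.55 and 0.88 in the lines, and 2 were above WT. *JAZ1* was 2.92, 2.04 and 2.44 in WT and 3.18, 6.04 and 6.66 in OX. *JAZ10* was −1.58, −2.30 and −1.83 in WT and −1.80, 1.47 and 2.26 in OX, so that line 1 was inside the WT range. None of the jasmonate or JAZ genes passed the limit.

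Most ethylene genes other than *ACS7* lay below WT. Over 20 tested genes, 4 of which passed the detection filter through WT alone, the median difference was −0.47 (−0.37 with *ACS7* at its bound), with −0.28, −0.54 and −0.24 in the 3 lines, and 10 had all OX arrays below WT. Over the 15 measured on all 6 arrays the median was −0.29, with 6 below WT. It was one of the few groups in which line 1 differed as much as line 3. *ACS11*, another synthase of the precursor, was 1.05, 1.34 and 0.88 in WT and 0.76, −1.81 and −3.24 in OX. *EBF2*, the F-box protein that turns over the ethylene transcription factors, was 6.37, 6.17 and 6.35 in WT and 5.79, 5.79 and 5.65 in OX, lower by a similar amount in each line.

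Salicylic acid genes could not be read from the group means alone, because WT replicate 1 stood apart. The medians of the 17 tested genes were 0.65, −0.50 and −0.11 on the WT arrays and −0.02, 0.56 and 1.31 in lines 1, 2 and 3, with a median difference of 0.46 (0.24 to 0.86 with 1 WT array left out). Of the 17, 1 passed the detection filter through OX alone, and over the other 16 the median was 0.45. *PR1*, the pathogenesis-related gene used as the standard marker, was 3.01 in WT replicate 1 but −3.98 and −4.16 in the others, and 3.18, 3.81 and 4.13 in OX. *PR5* was 5.46, 2.86 and 3.25 in WT and 4.47, 7.19 and 8.13 in OX, with line 1 inside the WT range. *DMR6*, a hydroxylase that inactivates salicylic acid, was 3.30, 2.19 and 2.58 in WT and 3.41, 4.31 and 4.84 in OX, just clear of WT in line 1.

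ABA-responsive genes had a median difference of 0.67 over 23 tested, with 0.12, 0.80 and 0.66 in the lines, and 5 had all OX arrays above WT. Of the 23, 1 passed the detection filter through OX alone, and over the other 22 the median was 0.57, with 5 above WT. *MAPKKK17*, a kinase induced by ABA, was −0.38, −0.40 and −1.08 in WT and 0.06, 2.95 and 2.48 in OX. Steps of ABA synthesis differed in sign: the oxidase *AAO3* was 3.50, 3.68 and 3.73 in WT and 4.06, 5.68 and 5.21 in OX, and the dehydrogenase *ABA2* was 5.41, 5.15 and 5.09 in WT and 4.89, 4.38 and 3.69 in OX. Type-A *ARR* genes, which report cytokinin signalling, split the lines, with medians of 0.48, 0.52 and −1.57. The exceptions were *ARR16* (5.43, 5.64 and 6.07 in WT and 5.05, 4.65 and 4.14 in OX) and *ARR17* (0.83, 0.79 and 1.11 in WT and 0.00, −0.47 and −1.21 in OX), which were below WT in every line.

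Genes of developmental cell death separated line 1 from the other lines most clearly. The 5 tested had medians of 0.50, 5.39 and 5.02 in lines 1, 2 and 3. Of the 5, 1 passed the detection filter through OX alone, the group in which it is high. Over the other 4 the line medians were 0.12, 5.21 and 4.44, and 2 had all OX arrays above WT. *CEP1*, a papain-type protease of dying cells, was −1.55, −2.91 and −3.51 in WT and 0.26, 7.50 and 7.08 in OX, a difference of 7.60 (limma, Benjamini-Hochberg adjusted p = 0.191). The nuclease *BFN1* was 0.68, 0.50 and 0.21 in WT and 1.17, 6.37 and 5.58 in OX. The metacaspase *MC9* was 0.62, 0.65 and 0.12 in WT, 0.20 in line 1, 5.85 in line 2 and 5.48 in line 3. In *MC9* line 1 could not be told from WT.

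Genes that recycle nitrogen had a median difference of 1.05 over 13 tested, with 0.07, 1.57 and 1.46 in the lines, and 5 had all OX arrays above WT. *ASN1*, the asparagine synthetase of starved and ageing leaves, was 2.79, 2.61 and 2.70 in WT and 4.75, 6.68 and 4.04 in OX. Here line 1 exceeded line 3. *GDH2*, a glutamate dehydrogenase, was 2.70, 2.09 and 2.30 in WT and 3.61, 5.86 and 4.24 in OX. The cytosolic glutamine synthetase *GLN1;1* was 5.52, 5.33 and 5.51 in WT and 5.52, 7.06 and 7.27 in OX, so that line 1 was level with WT.

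Amino acid breakdown was covered by 14 genes with a median difference of 0.07, of which 6 had all OX arrays above WT. *LKR*, the first enzyme of lysine breakdown, was 3.90, 3.64 and 3.40 in WT and 5.01, 7.38 and 7.23 in OX. *BCAT-2*, the first enzyme for branched-chain amino acids, was 1.32, 2.05 and 1.32 in WT and 2.69, 4.37 and 4.11 in OX. Both enzymes lay above WT in all lines. Peroxisomal fatty acid oxidation had a median difference of 0.77 over 15 tested, with 0.10, 1.0 and 0.97 in the lines, and 9 had all OX arrays above WT. Examples were the acyl-CoA oxidase *ACX2* (4.46, 4.55 and 4.19 in WT and 5.01, 5.81 and 5.95 in OX) and the thiolase *KAT5* (−0.15, −0.60 and −0.35 in WT and −0.05, 1.23 and 1.77 in OX).

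Proteolysis in the vacuole differed in lines 2 and 3. All 6 tested vacuolar proteases were above every WT array in both of these lines and none was in line 1, where the median was −0.08 against 0.81 and 1.27. Autophagy genes had small medians of −0.10, 0.21 and 0.36. Line 1 was below all WT arrays for 14 of 21 of them, whereas line 2 was above for 14. *ATG7*, the activating enzyme of autophagy, was 2.51, 2.53 and 2.47 in WT and 2.68, 4.37 and 4.26 in OX. *MT1C*, a metallothionein, was 3.94, 2.96 and 4.10 in WT, 3.79 in line 1, 8.58 in line 2 and 7.71 in line 3. Phosphate salvage genes had medians of −0.01, 1.05 and 1.06 in the lines over 9 tested. Line 2 was above every WT array for 5 of them, line 3 for 7 and line 1 for 0. Over the 8 measured on all 6 arrays the line medians were −0.07, 0.39 and 0.98. The acid phosphatase *PAP17* was 3.99, 3.0 and 3.17 in WT, 3.88 in line 1, 7.38 in line 2 and 8.01 in line 3.

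The 12 genes of Chl breakdown graded in the same way as a group, with medians of 0.08, 1.64 and 2.0 in lines 1, 2 and 3. The mean was higher in OX for 10 and lower for 2. All OX arrays were above WT for 5 and below for 1, where all genes gave 12.9% and 21.1%. The gene of the Mg-dechelating protein *SGR1* is given as a clear case: 3.44, 3.26 and 3.41 in WT, 3.48 in line 1, 6.85 in line 2 and 6.68 in line 3. Genes that build and run the chloroplast differed much less. Antenna genes had medians of 0.02, −0.20 and −0.38, photosystem core genes 0.03, −0.13 and −0.40, and Calvin cycle genes 0.06, −0.01 and −0.23. The summed antenna signal was 22634 to 23149 array medians in WT and 23023, 21238 and 18620 in OX.

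Single chloroplast genes lay clear of WT by small amounts. *GNC*, a GATA factor that promotes chloroplast development, was 5.74, 5.80 and 5.98 in WT and 5.36, 5.29 and 4.97 in OX. *CP12-2*, a regulator of the Calvin cycle, was 7.07, 7.11 and 6.92 in WT and 6.89, 6.31 and 6.02 in OX. The antenna gene *LHCB2.1* was higher, at 4.76, 4.82 and 4.55 in WT and 4.93, 5.60 and 5.72 in OX. For carbon, *BAM1*, a beta-amylase of starch breakdown, was 6.92, 7.02 and 6.96 in WT and 7.28, 8.61 and 8.77 in OX, and *STP13*, a hexose importer, was 1.06, −0.14 and 0.60 in WT and 1.68, 4.31 and 2.90 in OX. None of these genes passed the limit.

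The lowest median of the 47 groups belonged to auxin genes of growth. Small auxin-up RNA (*SAUR*) genes encode short proteins that promote cell expansion, and the 53 tested had a median difference of −2.10 (−1.79 with genes at their bound), with −0.61, −2.05 and −2.93 in the lines. All OX arrays were below WT for 31 and above for 1. Of the 53, 18 passed the detection filter through WT alone, and over the 35 measured on all 6 arrays the median was −1.25, with 18 below WT and 1 above. Over all 53, line 1 was below every WT array for 36, against 38.3% of all genes. *SAUR20* was 4.17, 4.17 and 4.17 in WT and 2.46, 0.03 and −0.14 in OX, a difference of −3.39 (limma, Benjamini-Hochberg adjusted p = 0.189). *SAUR19* was 3.78, 3.73 and 3.65 in WT and 2.06, −1.06 and −1.65 in OX. The *SAUR* genes lie in clusters of close copies, and their probes may read more than 1 copy. *SAUR36*, described as a promoter of leaf senescence, went the other way, at 0.06, −0.92 and −0.96 in WT, 0.01 in line 1, 2.52 in line 2 and 1.81 in line 3.

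*Aux/IAA* genes, early auxin targets that encode repressors of the response, had a median difference of −0.83 over 22 tested, with −0.29, −1.25 and −0.95 in the lines, and 15 had all OX arrays below WT and none above. Of the 22, 1 passed the detection filter through WT alone, and over the other 21 the median was −0.75, with 14 below WT. *IAA29* was 4.51, 4.66 and 4.89 in WT and 2.66, 1.09 and 0.26 in OX, a difference of −3.35 (limma, Benjamini-Hochberg adjusted p = 0.177). *IAA6* was 2.39, 2.65 and 2.69 in WT and 2.23, −2.60 and −2.75 in OX, so that line 1 lay just outside the WT range and lines 2 and 3 far below it. The auxin synthesis gene *YUC9* was −0.32, −0.59 and −0.25 in WT and −2.14, −3.13 and −5.0 in OX, where no array measured it well above background, at least 4.22-fold lower (limma, Benjamini-Hochberg adjusted p = 0.189).

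**Figure D5:**
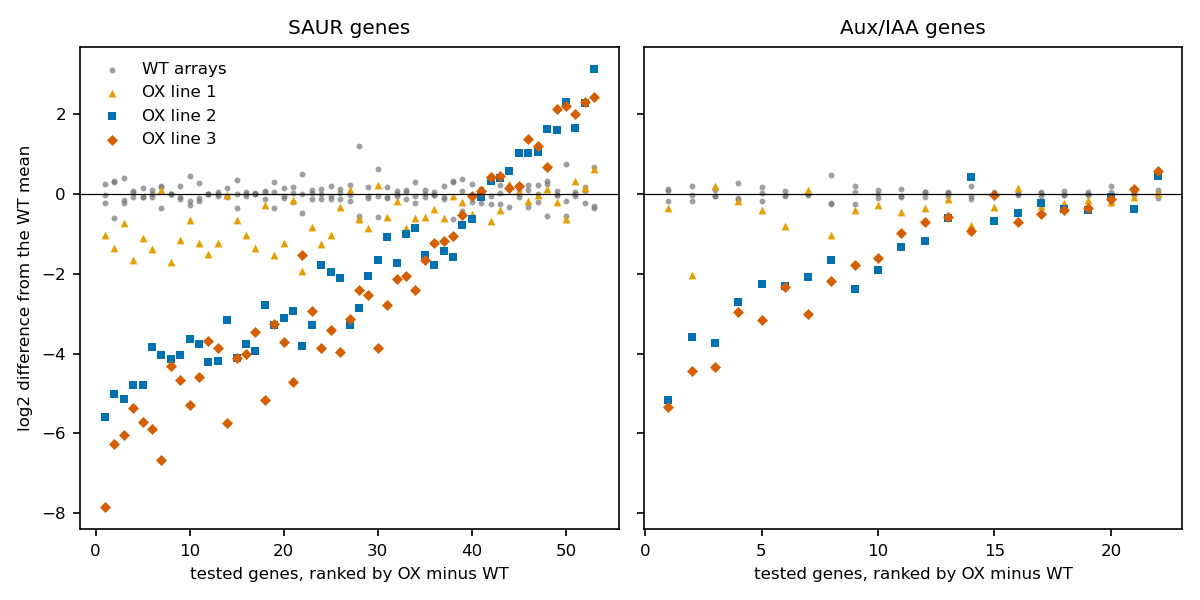
Log2 difference of each array from the WT mean for the 53 tested *SAUR* genes (left) and the 22 tested *Aux/IAA* genes (right), ranked by the mean difference of OX from WT. Most points of lines 2 and 3 lie far below 0 and those of line 1 between them and the WT arrays (grey), with medians of −0.61, −2.05 and −2.93 for *SAUR* genes.

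Of 7 tested regulators of growth, all had a lower mean in OX and 3 had all OX arrays below WT. However, 2 of the 7 passed the detection filter through WT alone, which favours a lower mean in OX. Over the 5 measured on all 6 arrays the median was −0.99, with 2 below WT. *PRE1*, a small bHLH protein that promotes elongation, was 0.72, 0.75 and 0.72 in WT and −0.21, −2.07 and −4.06 in OX. *GASA6*, a gibberellin-regulated peptide gene, was 5.99, 5.70 and 6.11 in WT and 5.00, 3.66 and 1.89 in OX. Expansins were split, with 7 of 14 tested higher and 7 lower in the mean and with 2 above and 3 below WT on all OX arrays. Of these, *EXPA11* was 5.94, 5.81 and 5.95 in WT and 5.66, 3.11 and 2.20 in OX. In *PRE1*, *GASA6* and *EXPA11* the lines stood in the order 1, 2, 3. Of 24 tested enzymes that remodel xyloglucan, 8 were above WT and 6 below on all OX arrays, where all genes gave 12.9% and 21.1%. Over the 22 measured on all 6 arrays, 36.4% were above WT and 22.7% below, against 12.8% and 20.4% of all genes so measured. *XTR6* was 0.09, −0.98 and −1.32 in WT and 1.51, 5.24 and 4.86 in OX, and *XTH33* was 3.60, 3.08 and 3.50 in WT and 2.76, 0.40 and 1.14 in OX.

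Line 3 differed from the other lines in cell division genes. It was below every WT array for 18 of 19 tested genes of the cell cycle, whereas line 1 was above every WT array for 16 and line 2 for 11. Of the 19, 8 passed the detection filter through WT alone, and over the other 11 the line medians were 0.46, 0.69 and −0.54. *KN*, the syntaxin of cytokinesis, was 1.39, 1.64 and 1.08 in WT and 1.84, 1.53 and −1.11 in lines 1, 2 and 3. The mitotic kinase *CDKB2;1* was −1.23, −1.13 and −1.57 in WT and −0.70, −0.99 and −3.55 in OX. Glucosinolate genes of the aliphatic type also stood out in line 3, with 11 of 13 above every WT array against 2 in line 2 and none in line 1, but their medians spread from −0.27 to 0.57 on the WT arrays.

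Among regulators, 48 *WRKY* genes had a median difference of 0.47, with 0.13, 0.50 and 0.84 in the lines. All OX arrays were above WT for 17 and below for 3, and *WRKY57* alone passed the limit. Of the 48, 3 passed the detection filter through OX alone, the group in which they are high, and 3 through WT alone. Over the 42 measured on all 6 arrays the median was also 0.47, with 14 above WT and 2 below. *WRKY28* was −0.06, −0.86 and −0.75 in WT and 1.81, 3.53 and 2.68 in OX (limma, Benjamini-Hochberg adjusted p = 0.174). *WRKY60* was 2.42, 1.88 and 2.18 in WT and 3.86, 5.84 and 6.43 in OX, and *WRKY75*, which promotes senescence, was −0.63, −2.94 and −3.43 in WT and 0.08, 3.20 and 1.83 in OX.

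The *NAC* family, with 52 genes tested of 97 on the array, had a median difference of 0.42. All OX arrays were above WT for 13 and below for 4, where all genes gave 12.9% and 21.1%. The 52 and the 13 include *ANAC046* itself, the overexpressed gene. Of the 52, 1 passed the detection filter through OX alone and 6 through WT alone. Over the 45 measured on all 6 arrays, 13 were above WT and 1 below. *NAC084*, the largest after *ANAC046* itself, was −1.35, −1.63 and −1.82 in WT and −0.72, 5.49 and 4.84 in OX. Of the clock, *PRR7* was −0.43, −0.37 and −0.55 in WT and 0.54, 0.95 and 1.56 in OX, clear of WT in all lines. The anthocyanin regulator *PAP1* was 0.24, −2.13 and −1.02 in WT and 0.70, 3.81 and 5.80 in OX. Neither passed the limit.

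Patterns over the lines of 2 kinds were picked out among genes with a WT SD under 0.3. In the first, all 3 lines were far from WT. *AT3G22620* was −4.32, −4.03 and −4.15 in WT and 0.38, 6.01 and 5.84 in OX, at least 98.0-fold higher (limma, Benjamini-Hochberg adjusted p = 0.179). *AT1G62760* was at least 34.8-fold and *AT2G21100* at least 28.8-fold higher. On the lower side, *AT5G02760*, a protein phosphatase, was 6.63, 6.59 and 6.75 in WT and 4.96, 1.88 and 2.71 in OX.

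In the second kind, line 1 stayed within the range of the WT arrays while lines 2 and 3 were far outside it. Beside *MC9*, the ethylene response factor *ERF105* was 1.11, 1.70 and 1.46 in WT, 1.12 in line 1, 5.74 in line 2 and 6.66 in line 3. *AT1G52190*, a nitrate transporter, was 6.17, 6.51 and 6.39 in WT, 6.27 in line 1, 3.50 in line 2 and 2.12 in line 3. *AT1G76240* was 3.64, 3.73 and 3.29 in WT, 3.41 in line 1, 0.08 in line 2 and −1.51 in line 3. These genes were chosen for their pattern, which is given as a description.

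Signals that appeared in OX alone were counted as well, but such counts depend on the sensitivity of each array. Spots well above background made up 62.2, 68.7 and 63.3% in lines 1, 2 and 3 and 63.3 to 66.8% in WT. Signal over background at the median spot was 5.77, 8.19 and 5.96 in the lines and 5.60 to 6.29 in WT. The part of sensitivity in the counts was not tested. Of the loci measured well above background on no WT array, 751 were so measured on 1 OX array, 367 on 2 and 46 on all 3. In 335 of the 367 the 2 arrays were lines 2 and 3. In the other direction, 409 loci were measurable on 1 WT array, 77 on 2 and 58 on all 3 but on no OX array.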

How the data were processed

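Total RNA of leaves was measured on one-color Agilent 4 × 44k arrays, and samples were grouped by the genotype and age in the labels. Per the file headers the intensities came from Agilent's Feature Extraction version 11.5.1.1 (9.1.3.1 per the labels), with local background subtracted and no scaling between arrays, beside flags for outlier, saturated and detected spots. The authors also deposited a table of normalized values on a log scale, divided by array medians and quantile normalized with earlier arrays that were not used here, every column with a median of −0.49. The base was not stated, and this deposited table was treated as natural log. Between arrays its differences were 0.50 of the log2 differences of the intensities at the median of 105 pairs, and 0.64 for bright probes (6085 of 24340), against 0.693 for natural log and 0.301 for log10. Its base and compression therefore stay unknown, and only calls and signs were read from it. None of its columns (0) was left unmapped.

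Spots with outlier flags (2 to 13 per array at 50 DAS) were dropped, and none was saturated there. Signals were divided by the array median, repeated spots averaged, the 15 arrays quantile normalized and log2 taken. Probes were named by accession through the RefSeq table of assembly TAIR10.1, which placed 34348 of 43603 probes on 25410 loci, and the brightest probe of a locus was used. The 6 arrays were fitted with limma 3.58.1 in R 4.3.3 (lmFit, eBayes), and the 9 arrays at 5 DAD in a fit of their own. The number of arrays limits the precision. In 20635 genes simulated with the variances of the 6 arrays, 75 of 200 genes changed by 1 log2 unit and 158 of 200 changed by 2 were found, with 10 and 28 false calls, and none where no gene was changed. Each simulation used a single size of change, in 200 genes only. In the data the OX lines were unequal, with SDs of the difference from the WT mean of 0.50 to 1.24 over all genes tested. The simulated shares therefore do not tell how many changes of these sizes could be found in this comparison.

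The gene groups and the members to be described were chosen with earlier results of these data known. The named genes were the genes with a locus past the limit (1 of them, with 1 further member, is not reported here), the first 2 members of each group and up to 2 with the largest difference among those clear of WT, and the extremes of the line patterns (WT SD under 0.3). Further members, and *MAP18*, *ACS7*, *PAP21* and *AT5G38780* at 5 DAD, were chosen after their values were seen. Of 1019 list entries, 21 could not be matched by annotation and were left out. Auxin response factors were left out of the *Aux/IAA* group. Alternatives were the 75th percentile scaling, quantile normalization of the 6 arrays, normexp (offset 50, on median spot signals), the authors' table, the filters on dim probes, outlier spots, the mean of probes, all 15 arrays in 1 fit, array weights, a limit of 0.05, Storey's q-values, a replicate block, and each array left out, which for the arrays at 5 DAD was chosen after seeing the data. Promoter and probe sequences were not used here. Plots were made in Python 3.11.15 (matplotlib 3.10.9).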

Additional observations from a re-analysis of the deposited data

How the results depend on the processing

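The count of calls depended on nearly every choice. Against 19 higher and 1 lower, limma with Benjamini-Hochberg adjustment called 28 and 3 with 75th percentile scaling, 48 and 17 with quantile normalization of the 6 arrays alone, 8 and 0 with normexp, 16 and 2 on the authors' values, 29 and 39 with no filter on dim probes, 0 and 0 for genes well above background on all 6 arrays, 1 and 0 at a limit of 0.05, 2429 and 3291 with all 15 arrays in 1 fit, and 5830 and 8505 with array weights. Storey's q called 5092 and 7127. With 1 array left out the counts were 0 to 4940 and 0 to 6751. Calls ended altogether without WT replicate 2 or WT replicate 3 and rose most without line 1. At an unadjusted p under 0.05 the counts were 1920 and 2847. Of the 20 genes, 20 kept their call with 75th percentile scaling, with quantile normalization of the 6 arrays, in the fit of 15 arrays, with array weights and without line 1, and 8 with normexp. The replicate numbers did not pair the arrays (correlations of deviations −0.20, −0.26 and 0.13), and with the replicate block 0 genes were higher and 0 lower. *ANAC046* passed the limit in the fit of 15 arrays (6.29), with array weights (8.12) and by Storey's q (6.29), and differed by 5.22 to 8.40 with 1 array left out, where leaving out line 1 alone brought it past the limit. Group medians were counted as moved only where they shifted by more than the SD of the 3 line medians. This measure is wide where line 1 was weak, so large shifts could pass uncounted. Suberin ranged from 1.74 to 5.29 over the alternatives, cell death from 2.38 to 5.20, jasmonate from 1.16 to 2.84 and *SAUR* genes from −2.69 to −1.12, none counted as moved. The cases counted were few: antenna −0.44 and photorespiration −0.33 with the mean of probes, Calvin cycle −0.27, photorespiration −0.34 and starch breakdown 0.0937 with 75th percentile scaling, photorespiration −0.32, amino acid breakdown 0.38 and starch breakdown 0.27 with array weights, starch breakdown 0.27 with normexp, chloroplast proteases 0.40 with no filter, and ethylene −0.29 for genes measured on all 6 arrays. With 1 array left out, ethylene ranged from −0.53 to −0.28 and flavonoids from 0.14 to 0.46. Over the alternatives the medians of type-A *ARR* genes (−0.55 to 0.45), cell cycle (−0.31 to 0.35) and xyloglucan genes (−0.70 to 0.04) changed sign, as did those of chlorophyll, carotenoid and starch synthesis, heat shock and expansins. *KN* (−1.16 to 0.31) and *CDKB2;1* (−0.96 to 0.46) changed sign without line 3, and *CDKB2;1* also with array weights (0.0499), and *PDF1* did without line 2 (−0.58 to 1.72). Of the other alternative values of named genes, 1524 kept their direction and their side of the limit, 331 came to pass it and 137 no longer did. The causes were not tested. Weak signals limit the genes given as bounds, and signal over background was 5.60 to 8.19 at the median spot.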
